A study of Mus musculus with 20 samples.

Results

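The nuclear genes for the subunits of oxidative phosphorylation were followed across 20 arrays of mouse aorta. They were chosen by symbol: Nduf followed by a, b, c, s or v, the 4 Sdh genes, Uqcr, Cyc1, Cycs, Atp5, and Cox4 to Cox8. The rule found 84 of 18193 genes that had a probe set naming 1 gene, and each gene took its brightest such probe set. They comprised 34 genes of complex I, 4 of complex II, 9 of complex III, 1 for cytochrome c, 17 of complex IV and 17 of complex V. Ndufa4 was counted in complex IV, where the protein is now placed, and Ndufa4l2 and Cox7a2l, which carry the names of subunits without being standard ones, were kept apart as 2 related genes. A total of 81 passed the filter on low signal, and Cox4i2, Cox7b2 and Ndufb4 did not. For Ndufb4 this holds for its single-gene probe set, at 6.98 to 8.61 on the log2 scale used below. Probe sets shared by Ndufb4, Ndufb4b and Ndufb4c read 13.43 to 14.98 and were left out by the rule. Ndufa11 and Ndufs6 were named only by such shared probe sets and are not among the 84.

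Oxidative phosphorylation takes place in the inner mitochondrial membrane. Complexes I and II pass electrons from NADH and succinate to ubiquinone, complex III passes them to cytochrome c, complex IV hands them to oxygen, and complex V uses the resulting proton gradient to make ATP. Most subunits are encoded in the nucleus and the rest in mitochondrial DNA, and complex IV has tissue isoforms, with Cox7a1, Cox8b and Cox6a2 known from striated muscle and, for Cox7a1 and Cox8b, brown fat. The wall of the aorta is mostly smooth muscle, and the fat around the mouse thoracic aorta resembles brown fat, which is rich in mitochondria.

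The study asked how the aorta responds when the nuclear receptor PPARγ is activated or interfered with. Adult C57BL/6J mice ate chow with rosiglitazone, a drug that activates PPARγ, at a daily dose of 3 mg/kg or 10 mg/kg. There were 3 arrays after 2 days and 3 after 14 days at the lower dose, and 3 and 2 at the higher one. The 3 control arrays were of C57BL/6J mice on chow alone, the vehicle of the drug. In a separate experiment 3 arrays of mice with a targeted knock-in of dominant-negative P465L PPARγ at its own locus were compared with 3 arrays of wild-type littermates, all on standard chow. The strain and age of these mice, whether they carried 1 or 2 mutant alleles, and whether fat was stripped from the aortas are not given in the sources used here. Each array held RNA pooled from 8 aortas, so the spread between arrays is a spread between pools, and values below are log2 of the deposited signal plus 72 unless a sentence says otherwise.

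The sequences before the start sites of 4 of these genes show how unlike they are upstream, and are given because the genes recur below: Cycs, the gene called with rosiglitazone, the tissue isoforms Cox7a1 and Cox8b, whose fold changes were the highest with rosiglitazone, and Cox8a, the ubiquitous counterpart of Cox8b. Each is the 250 bases before the start in RefSeq on GRCm38.p6, written 5′ to 3′ on the gene's own strand, with the core of the nuclear respiratory factor 1 site in capitals.
Cycs, minus strand, chr6:50566570-50566819: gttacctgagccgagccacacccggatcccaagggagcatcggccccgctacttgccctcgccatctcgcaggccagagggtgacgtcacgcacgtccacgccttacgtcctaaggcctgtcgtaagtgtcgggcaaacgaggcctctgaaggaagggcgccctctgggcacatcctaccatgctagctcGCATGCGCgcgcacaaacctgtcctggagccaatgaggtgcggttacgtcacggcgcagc
Cox7a1, plus strand, chr7:30183921-30184170: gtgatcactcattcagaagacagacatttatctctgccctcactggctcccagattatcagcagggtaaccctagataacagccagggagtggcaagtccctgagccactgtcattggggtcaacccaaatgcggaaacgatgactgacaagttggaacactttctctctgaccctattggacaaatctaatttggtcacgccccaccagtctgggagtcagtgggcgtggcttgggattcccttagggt
Cox8b, minus strand, chr7:140900447-140900696: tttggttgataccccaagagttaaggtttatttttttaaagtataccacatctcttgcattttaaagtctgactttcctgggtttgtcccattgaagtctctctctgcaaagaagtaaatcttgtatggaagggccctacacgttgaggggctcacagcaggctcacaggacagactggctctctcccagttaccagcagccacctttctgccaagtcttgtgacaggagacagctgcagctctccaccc
Cox8a, minus strand, chr19:7217617-7217866: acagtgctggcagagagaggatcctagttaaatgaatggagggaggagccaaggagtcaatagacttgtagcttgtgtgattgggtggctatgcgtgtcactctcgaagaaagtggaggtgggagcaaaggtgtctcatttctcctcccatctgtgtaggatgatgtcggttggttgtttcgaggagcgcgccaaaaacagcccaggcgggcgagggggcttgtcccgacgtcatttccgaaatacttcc
The Cycs sequence held the capitals 53 to 60 bases before the start, with 23 CpG dinucleotides and 64.0% G and C. Cox7a1 had 4 CpG dinucleotides, Cox8b had 1 and Cox8a had 11, and none of these 3 sequences held any of the 5 motifs searched.

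The search covered windows from 250 bases before to 50 bases after the start, on both strands, for 68 of the 84 genes that had a RefSeq promoter, 73 promoters in all. The nuclear respiratory factor 1 core GCATGCGC was in 13.7% of them, against 2.71% of 32851 promoters of the table. The 10 genes that held it were Cycs, Sdhb, Uqcrc1, Uqcr11, Cox6a1, Ndufa6, Ndufa8, Atp5g2, Atp5k and Atp5l, so every complex had at least 1. The YY1 letters AAGATGGC were in 12.3% against 2.75%, and the GABPA letters CCGGAAGT in 6.85% against 3.89%. Cox8a was among the genes with the GABPA letters, with a match not wholly inside the 250 bases printed above. The estrogen-related receptor letters TCAAGGTCA, which include the half-site AGGTCA, were in 2.74% against 0.423%. The PPAR response element, searched as 2 half-sites AGGTCA 1 base apart, was in 0 of 73 and in 0.0396% of all promoters. These matches describe letters and not bound sites. With rosiglitazone the median log2 fold change was 0.23 for the 10 genes with the nuclear respiratory factor 1 core and 0.23 for the 56 others with a promoter that passed the filter, a description without a test.

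The arrays carried the mark of the tissue: all 10 smooth muscle markers passed the filter, and their mean lay between 14.88 and 15.30 on every array. Within-group arrays correlated at 0.964 to 0.988 over the genes tested. No detection calls, scan dates or batches were given in the sources used here. The median signal of an array ranged from 321.3 to 450.7 at an equal trimmed mean of 1499 to 1500.

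The mean level of the subunits was higher on every rosiglitazone array than on chow, and so it was in the untreated littermates. The mean of the 81 genes was 14.06, 14.06 and 13.91 on the chow arrays. It was 14.70, 14.15 and 14.21 after 3 mg for 2 days, 14.07, 14.42 and 14.32 after 3 mg for 14 days, 14.22, 14.15 and 14.08 after 10 mg for 2 days, and 14.39 and 14.19 after 10 mg for 14 days. All 11 rosiglitazone arrays were above all 3 chow arrays, with array A of 3 mg for 2 days standing apart at the top and array A of 3 mg for 14 days next to chow at the bottom. The wild-type littermates, which received no drug, had 14.39, 14.47 and 14.13, also above every chow array. The P465L arrays had 14.35, 14.01 and 13.84, overlapping both the littermates and chow. The SD between arrays of a group, pooled over the 7 groups, was 0.20.

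**Figure D1:**
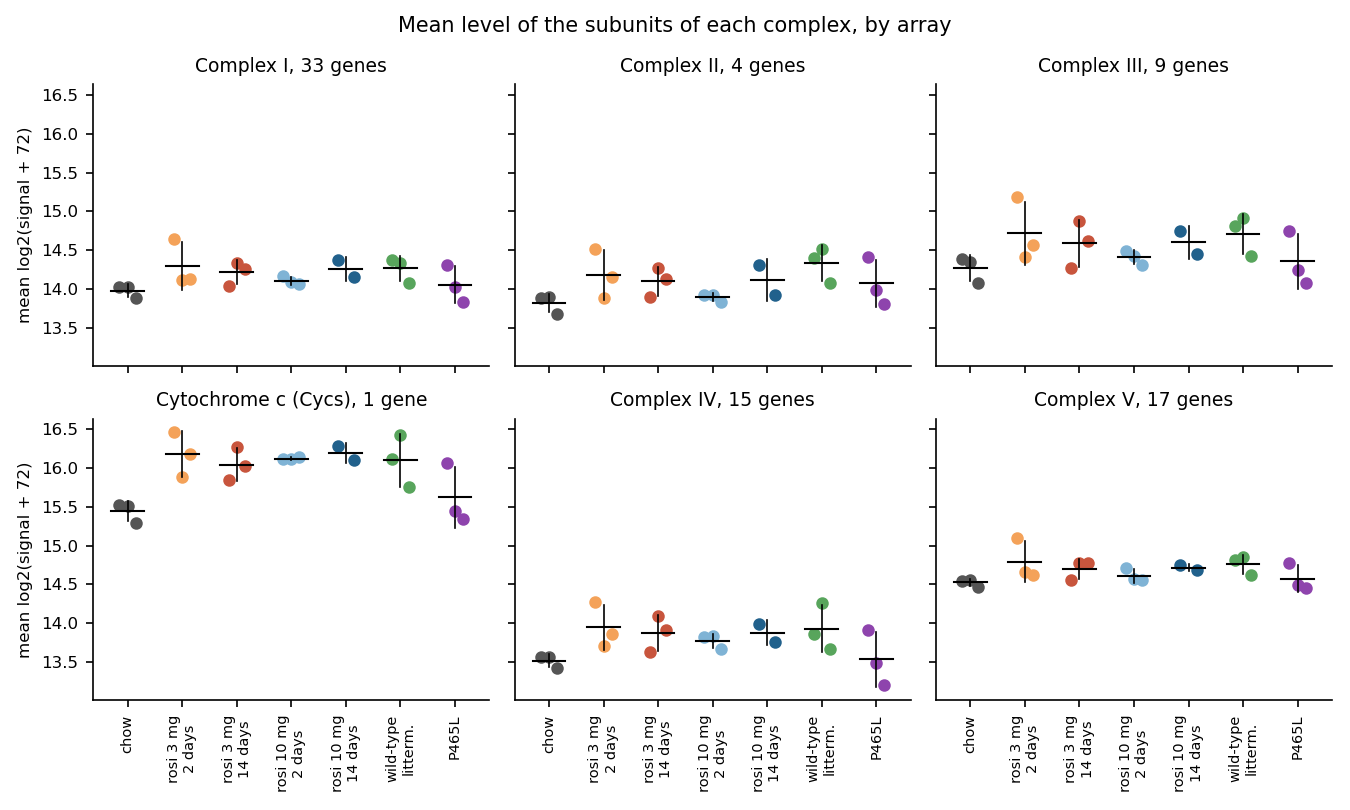
Mean log2(signal + 72) of the subunits of complexes I to V and the level of cytochrome c on each of the 20 arrays (points), with the group mean (horizontal line) and 1 SD (vertical line); groups run from chow through the 4 rosiglitazone groups to wild-type littermates and P465L. Complex I on chow lay at 13.88 to 14.03 and on array A of 3 mg for 2 days at 14.65, and the littermates were above chow in every panel.

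The arrays at the extremes were mostly the same in each complex. Complex I had 14.02, 14.03 and 13.88 on chow, complex II 13.88, 13.89 and 13.68, complex III 14.38, 14.35 and 14.07, complex IV 13.56, 13.56 and 13.42, and complex V 14.54, 14.56 and 14.47. Array C of chow was the lowest of its group in each of the 5. Array A of 3 mg for 2 days was the highest of all 20 arrays in complexes I, III, IV and V, at 14.65, 15.18, 14.27 and 15.10, and shared the highest value, 14.52, with littermate array B in complex II. Array C of P465L was the lowest of all 20 in complexes I, IV and V, at 13.83, 13.20 and 14.45.

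**Figure D2:**
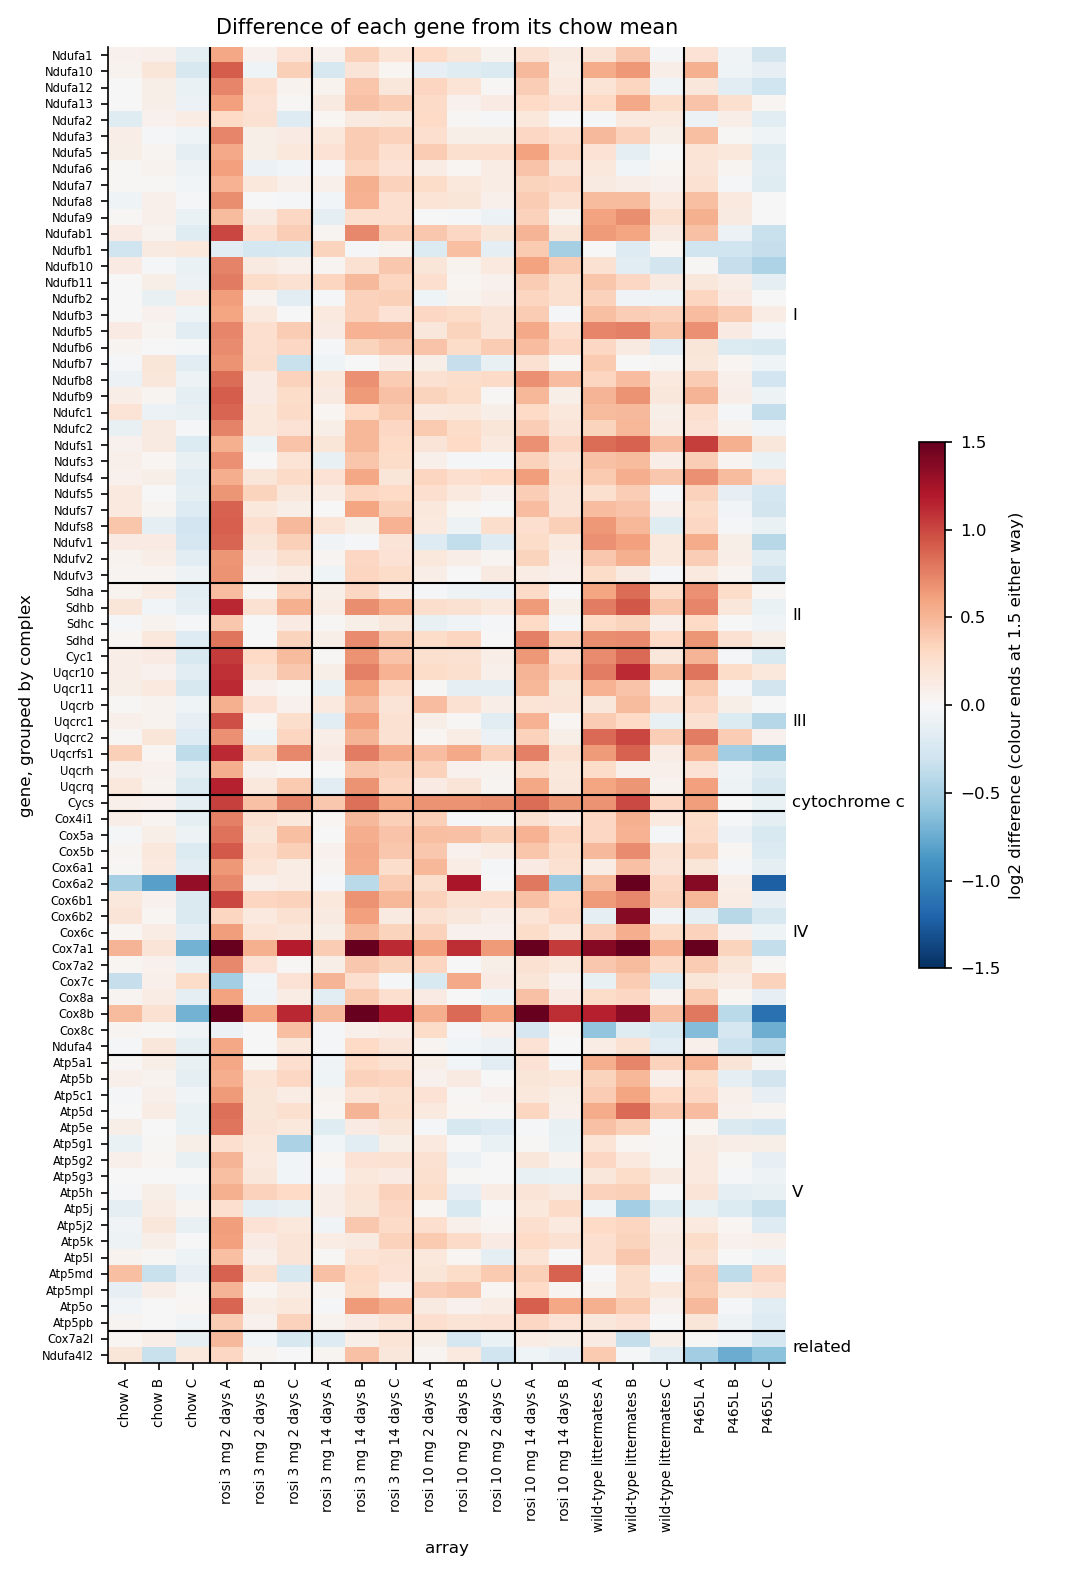
Each row is 1 of the 81 genes, grouped by complex, and each column 1 array; the colour is the log2 difference from the gene's own chow mean, with the scale ending at 1.5 either way. Red fills most rows of rosiglitazone 3 mg 2 days A and of littermates A and B, P465L C is mostly blue or pale, and Cox7a1, Cox8b and Cox6a2 hold the widest swings.

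Across the 4 rosiglitazone groups together, 79 of 81 genes were higher than on chow, by a median log2 fold change of 0.23, while the median over all 11081 genes tested was -0.02. One gene passed the test: Cycs, cytochrome c, the small soluble carrier between complexes III and IV. The background was 48 genes called, 0.433% of those tested, and at an unadjusted p under 0.05 it was 14.2%, against 33 of the 81 genes here (40.7%, all higher). By complex the medians were 0.25 for complex I, 0.26 for complex II, 0.25 for complex III, 0.24 for complex IV and 0.19 for complex V, and 0.04 for the 2 related genes. Without Cycs, Cox7a1 and Cox8b, which had the highest fold changes, the median of the remaining 78 was 0.23. In RNA from whole vessel, fewer cells of a type and less RNA per cell cannot be told apart, in either direction.

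The direction of most genes held when arrays were left out, and its size moved. Without chow array C the median was 0.19 and 78 of 81 were higher, and without array A of 3 mg for 2 days the median was 0.19 with 76 higher. Centring each array on its median put the all-gene median at -0.11 and that of the 81 genes at 0.14, with 71 higher.

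Cycs on chow was 15.52, 15.51 and 15.29. After 3 mg it was 15.88 to 16.47 at 2 days and 15.84 to 16.27 at 14 days, and after 10 mg it was 16.11, 16.11 and 16.14 at 2 days and 16.28 and 16.10 at 14 days. The 11 rosiglitazone arrays all lay above the 3 chow arrays. Cycs rose by 0.69 ± 0.15 (SE) on the log2 scale, 1.62-fold (limma adjusted p = 0.0305; 3 chow and 11 rosiglitazone arrays). Its 4 probe sets were all higher, by 0.69, 0.82, 0.69 and 0.38. The call was lost without any 1 chow array and without arrays rosiglitazone 3 mg 14 days B, 10 mg 2 days B, 10 mg 2 days C or 10 mg 14 days A. It held in 20 of 31 settings tried, with an adjusted p from 0.0102 to 0.197 and a log2 fold change from 0.60 to 0.73.

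The 2 genes with the highest fold changes were tissue isoforms of complex IV, and neither passed the test. Cox7a1 was 12.66, 12.34 and 11.44 on chow, and 12.53 to 14.30 with a median of 13.25 over the 11 rosiglitazone arrays. Cox8b was 14.42, 14.17 and 13.24 on chow, and 14.43 to 15.97 with a median of 15.05 over the rosiglitazone arrays. Cox7a1 overlapped chow and Cox8b cleared it narrowly, and chow array C was far below the other 2 for both. The log2 fold changes were 1.15 ± 0.37 (SE; adjusted p = 0.162) for Cox7a1 and 1.12 ± 0.34 (adjusted p = 0.141) for Cox8b, and 0.79 and 0.77 without chow array C. Their ubiquitous counterparts had 0.23 ± 0.11 for Cox7a2 (adjusted p = 0.364) and 0.17 ± 0.13 for Cox8a (adjusted p = 0.618). Cox6a2, the muscle form, had 0.22 ± 0.47 and Cox6a1, the form of other tissues, 0.25 ± 0.12, neither called. Cox6a2 turned to -0.03 without chow array A and to -0.19 without chow array B, and went to 0.88 without chow array C. Its level on chow arrays A and B, 8.94 and 8.62, was near the filter of 8.73.

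**Figure D3:**
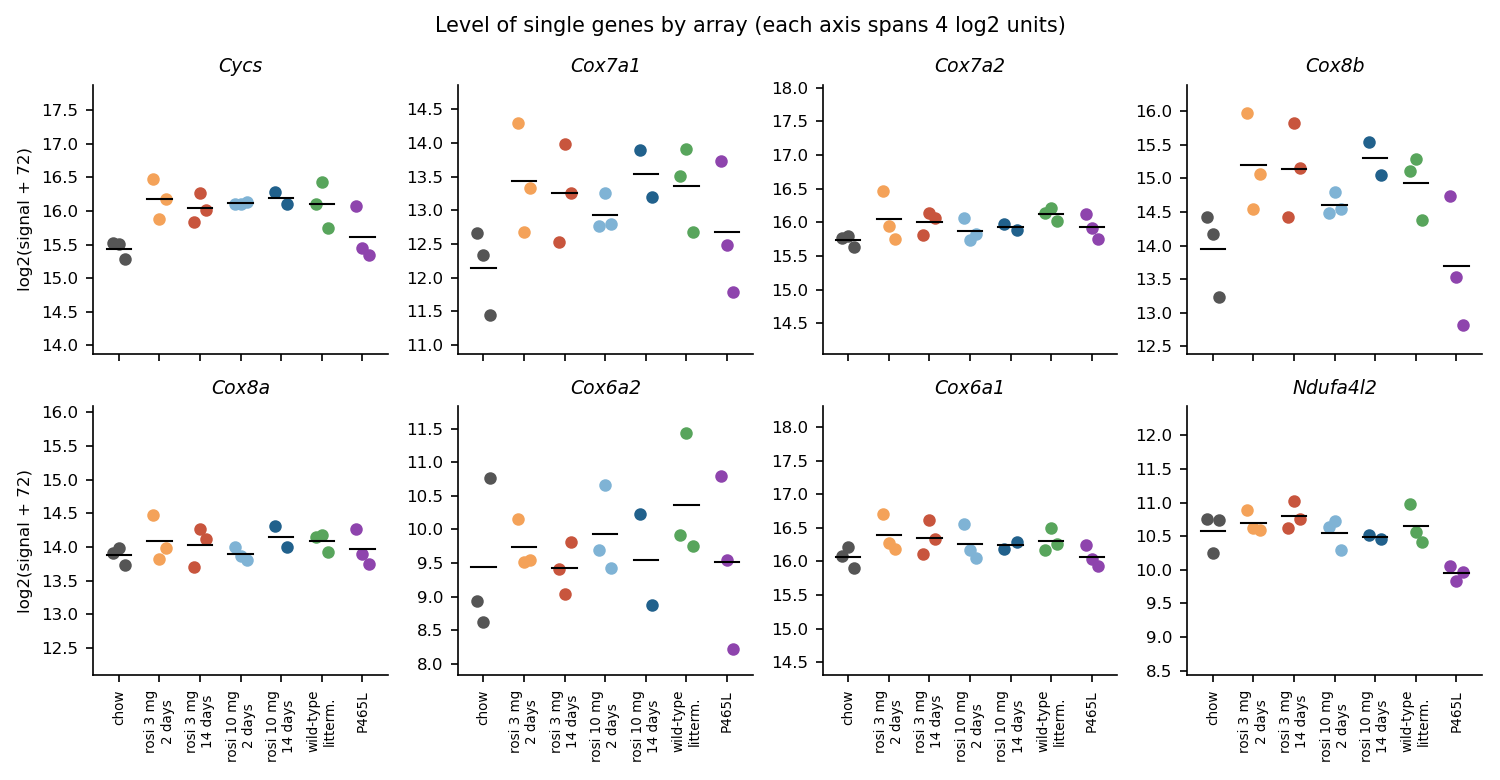
Log2(signal + 72) of 8 genes on each array (points) with the group mean (line); every vertical axis spans 4 log2 units. Cycs on chow (15.29 to 15.52) is below all rosiglitazone arrays, Cox7a1 and Cox8b spread widely within groups, Cox7a2 and Cox8a stay in narrow bands, and Ndufa4l2 in P465L (9.84 to 10.06) is below every other group.

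Among the entry complexes, the conserved core subunits of complex I, which carry out the electron transfer, had a median of 0.24 over 6 genes, and the 27 accessory subunits had 0.25. Ndufs1, the largest iron-sulphur subunit, was 12.43, 12.51 and 12.17 on chow and had a log2 fold change of 0.33 ± 0.15 (adjusted p = 0.321). Ndufv1, which binds NADH, had 0.12 ± 0.16 (adjusted p = 0.798) and turned to -0.01 without chow array C. Ndufb8, an accessory subunit of the membrane arm, was 14.10, 14.36 and 14.11 on chow and 14.31 to 15.03 with the drug, with 0.42 ± 0.14 (adjusted p = 0.165), and 2 rosiglitazone arrays, at 14.31 and 14.35, lay below the highest chow array. In complex II the iron-sulphur subunit Sdhb had 0.42 ± 0.18 and the membrane anchor Sdhd 0.38 ± 0.16, while the flavin subunit Sdha had 0.13 ± 0.13 and the anchor Sdhc 0.09 ± 0.09, none called.

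In complex III all 9 genes were higher, from 0.21 to 0.54. The Rieske iron-sulphur protein Uqcrfs1 had the highest fold change of the 9. It was 14.06, 13.74 and 13.32 on chow against 13.83 to 14.83 with the drug, with 0.54 ± 0.22 (adjusted p = 0.259). Its arrays overlapped chow, and the difference was 0.35 without chow array C. Cyc1, the cytochrome that delivers electrons to Cycs, had 0.41 ± 0.17 (adjusted p = 0.280), and the core protein Uqcrc1 0.23 ± 0.17 (adjusted p = 0.597).

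In complex IV the ubiquitous subunits Cox5a and Cox6b1 had 0.41 ± 0.13 (adjusted p = 0.165) and 0.41 ± 0.14 (adjusted p = 0.183), and Cox4i1, the regulatory subunit found in most tissues, 0.24 ± 0.13 (adjusted p = 0.395). Cox6b1 was 15.65, 15.56 and 15.28 on chow and 15.66 to 16.50 with the drug, so the groups did not overlap but nearly met. Non-overlapping arrays with the drug higher were seen for 8 of the 81 genes (Cycs, Cox6b1, Cox8b, Uqcrb, Ndufa7, Ndufs4, Atp5k and Atp5pb), against 0.803% of all genes tested. In complex V the main subunits of the catalytic head, Atp5a1 and Atp5b, had 0.12 ± 0.12 and 0.20 ± 0.11. Atp5c1, the rotor shaft, had 0.18 ± 0.10, and the genes for the c ring -0.02 for Atp5g1, 0.13 for Atp5g2 and 0.06 for Atp5g3. The 5 lowest members were Ndufb1 (-0.03), Atp5g1 (-0.02), Cox7a2l (0.03), Cox8c (0.04) and Atp5e (0.05), and each of the 5 changed sign under some setting.

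**Figure D4:**
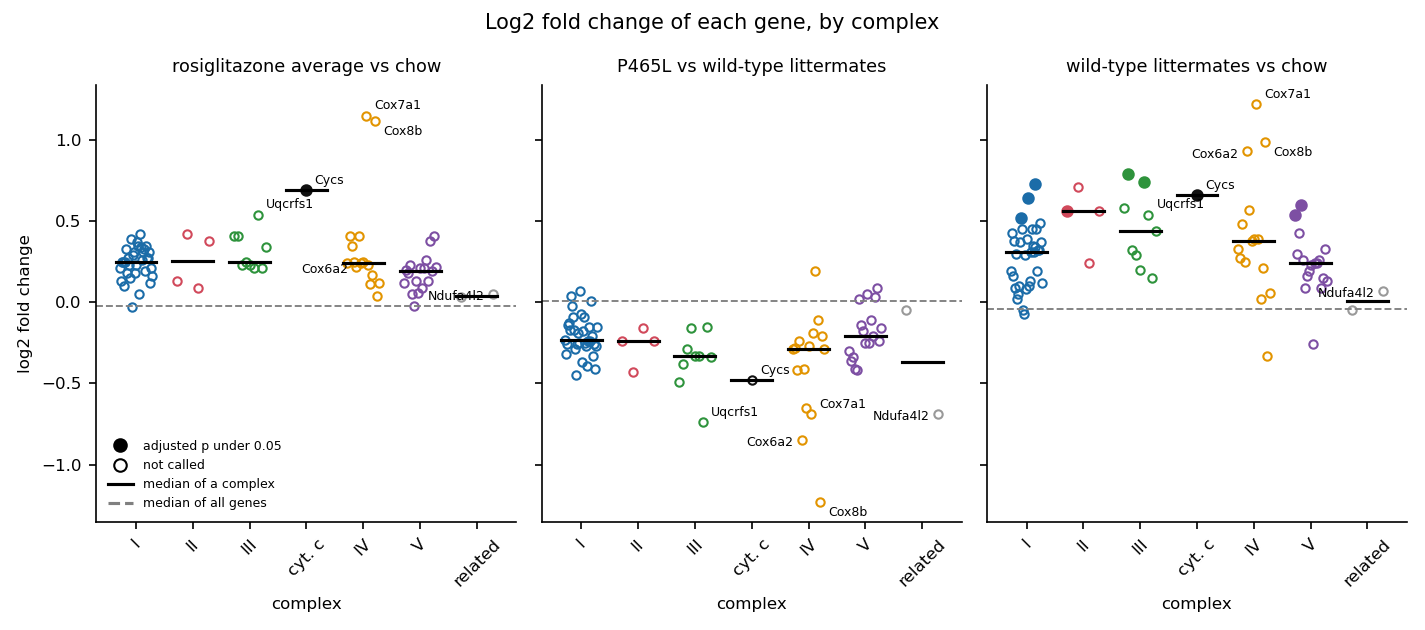
Log2 fold change (vertical axis) of each of the 81 genes by complex in 3 comparisons, with filled points for genes called at an adjusted p under 0.05, open points for the rest, a bar at the median of a complex and a dashed line at the median of all genes tested. Most points lie above the dashed line in the left and right panels and below it in the middle one; the left and right panels share the chow arrays, and the middle and right panels share the littermates.

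By dose and time, the 4 rosiglitazone groups were each compared with the same 3 chow arrays, so they share their controls. At 3 mg for 2 days 78 of 81 genes were higher with a median of 0.32; at 3 mg for 14 days 78 with 0.24; at 10 mg for 2 days 67 with 0.13; and at 10 mg for 14 days 75 with 0.26. No gene of the 81 was called by limma in any of these, where 0%, 0%, 0.505% and 0.271% of all genes were. At an unadjusted p under 0.05 there were 38, 16, 7 and 17 of the 81, against 8.83%, 8.27%, 15.2% and 12.6% of all genes, so that at 10 mg for 2 days the share (8.64%) was below the background. The median at 3 mg for 2 days was 0.15 without its array A, the median at 10 mg for 14 days was 0.16 without its array A, and with median centring the median at 10 mg for 2 days was -0.00 with an all-gene median of -0.15.

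Cycs was the gene with the smallest p in all 4 groups, with 0.74 ± 0.18 (adjusted p = 0.302), 0.60 ± 0.18 (adjusted p = 0.428), 0.68 ± 0.18 (adjusted p = 0.0950) and 0.75 ± 0.20 (adjusted p = 0.127) in the same order. The second was Ndufb11, an accessory subunit of complex I, at 3 mg, with 0.42 at 2 days and 0.37 at 14 days. It was Ndufb6, another accessory subunit, at 10 mg for 2 days (0.36), and Atp5o, the stalk subunit that holds the catalytic head of complex V, at 10 mg for 14 days (0.74 ± 0.22, adjusted p = 0.159). Atp5o was 13.82, 13.86 and 13.89 on chow, 14.75 and 14.44 at that dose and time, and 13.92 to 13.99 at the same dose after 2 days. The 2-day arrays stood just above chow and the 14-day arrays well above both.

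Between doses, 64 of 81 genes were lower at 10 mg than at 3 mg, with a median of -0.11, and all 9 of complex III and all 4 of complex II were lower. Between times the median was 0.02, and the interaction of dose and time had a median of 0.21. None of the 81 was called in any of the 3 by limma, nor was any of all genes tested (0%). At an unadjusted p under 0.05 there was 1 of the 81 for dose, Atp5e, the smallest subunit of the catalytic head (-0.32 ± 0.11, adjusted p = 0.291), against 12.7% of all genes, 2 for time (background 4.19%) and 3 for the interaction (background 4.39%). Without array A of 3 mg for 2 days the median for dose was -0.03 and for the interaction 0.06, the furthest that leaving out any 1 array moved either median.

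In P465L mice 73 of 81 genes were lower than in wild-type littermates, by a median of -0.25, against 0.01 over all genes tested. None was called by limma, where 0.0180% of all genes were, and 16 of the 81 (19.8%, all lower) had an unadjusted p under 0.05, against 7.43% of all genes. The medians were -0.23 for complex I, -0.24 for complex II, -0.33 for complex III, -0.29 for complex IV and -0.21 for complex V. Array A of P465L lay among the littermates, and the median was -0.38 without it and -0.14 without array C, with 78 and 69 genes lower. Without array C the medians were -0.11 for complexes I and II, -0.17 for complex III and -0.13 for complex V, and that of complex IV was -0.19 without littermate array B. Most genes kept the lower side in both cases, while the size of the median moved by more than 1.5 times.

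Cox8b was 15.11, 15.29 and 14.38 in littermates and 14.74, 13.54 and 12.82 in P465L, a log2 fold change of -1.23 ± 0.42 (adjusted p = 0.616), and -0.79 without P465L array C. Cox6a2 was 9.92, 11.44 and 9.75 in littermates and 10.80, 9.54 and 8.22 in P465L, -0.85 ± 0.59 (adjusted p = 0.745), and -1.49 without P465L array A and -0.20 without array C. The Cox6a2 value of 8.22 lay below the filter of 8.73. Uqcrfs1 was 14.34, 14.59 and 13.82 in littermates and 14.24, 13.19 and 13.10 in P465L, -0.74 ± 0.27 (adjusted p = 0.625). In each of these 3 genes P465L array A fell among the littermate values, so the groups overlapped. Cox7a1 had -0.69 ± 0.46 (adjusted p = 0.734) and Cycs -0.48 ± 0.18 (adjusted p = 0.641), and Cox7a1 was -1.23 without P465L array A and -0.25 without array C.

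Ndufa4l2, a relative of Ndufa4 known as a target of the hypoxia response, had its own order of arrays. It was 10.98, 10.56 and 10.42 in littermates and 10.06, 9.84 and 9.97 in P465L, without overlap, a log2 fold change of -0.69 ± 0.17 (adjusted p = 0.388; unadjusted p = 0.000595). On chow it was 10.76, 10.25 and 10.74, and it differed from chow by 0.05 with rosiglitazone and by 0.07 in littermates. With Ndufb1 it was 1 of 2 genes whose P465L arrays were all below the littermates, against 6.99% of all genes. Among the 5 highest members, Cox7c had 0.19 ± 0.23, Atp5mpl 0.09, Ndufb2 0.07, Atp5j 0.05 and Ndufa5 0.04, none called.

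The untreated wild-type littermates, compared with the untreated chow controls, differed in these genes too, and experiment, strain background and group cannot be told apart here. In littermates 76 of 81 genes were higher than on chow, with a median of 0.31 against -0.04 for all genes, and 9 rose. The background was 6.49% of all genes called in either direction and 22.5% at an unadjusted p under 0.05, which 37 of the 81 reached (36 higher). Their arrays did not overlap, littermates higher, for 38 of the 81 genes and for 11.8% of all genes. The medians were 0.31, 0.56, 0.44, 0.38 and 0.24 for complexes I to V, and that of complex IV was 0.23 without littermate array B. This comparison shares the chow arrays with rosiglitazone, where the median was 0.23, and the difference between the 2 was not tested.

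The 9 genes that rose lay in complexes I, II, III and V and in cytochrome c, and none was of complex IV. This rests on the threshold, since Cox6b1 of complex IV had 0.57 ± 0.18 (adjusted p = 0.0554). Cox6b1 was called with array weights, with quantile normalization and with the array letter as a replicate block. Cox7a2, also of complex IV, was called with array weights. Cox8c of complex IV was called with the mean of probe sets, while by its brightest probe set it was lower (-0.33) and not called. Ndufs1 was 13.21, 13.26 and 12.83 in littermates against 12.17 to 12.51 on chow, with 0.73 ± 0.19 (adjusted p = 0.0241). The accessory subunits Ndufb5 and Ndufa9 rose by 0.64 ± 0.16 (adjusted p = 0.0246) and 0.52 ± 0.14 (adjusted p = 0.0350). Sdha, the flavin subunit of complex II, was 14.74, 14.99 and 14.42 against 13.99 to 14.26 and rose by 0.56 ± 0.16 (adjusted p = 0.0342). For these genes the lowest littermate pool, array C, still lay above the highest chow pool.

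In complex III Uqcr10, a small subunit, rose by 0.79 ± 0.21 (adjusted p = 0.0257) and the core protein Uqcrc2 by 0.74 ± 0.19 (adjusted p = 0.0246). Uqcr10 was 14.38, 14.73 and 14.09 in littermates and 13.71, 13.68 and 13.44 on chow. Cycs was 16.11, 16.43 and 15.75 in littermates and rose by 0.66 ± 0.18 (adjusted p = 0.0338). In complex V Atp5a1, of the catalytic head, rose by 0.54 ± 0.15 (adjusted p = 0.0319) and Atp5d, of the central stalk, by 0.60 ± 0.16 (adjusted p = 0.0286). The tissue isoforms were high without a call: Cox7a1 had 1.22 ± 0.46 (adjusted p = 0.117), Cox8b 0.99 ± 0.42 (adjusted p = 0.168) and Cox6a2 0.93 ± 0.59 (adjusted p = 0.372). Cox8b was 0.64 without chow array C, and Cox6a2 was 0.39 without littermate array B and 1.59 without chow array C. The lowest were Cox8c (-0.33), Atp5j (-0.26), Ndufb10 (-0.07), Ndufb1 (-0.05) and Cox7a2l (-0.05).

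The number of these calls depended on single arrays. There were 0 without chow array C, 0 without littermate array A and 0 without littermate array B, 1 without chow array A, 2 without chow array B, and 17 without array A of 3 mg for 2 days, which enters only the common spread. With the array letter as a replicate block, which the labels do not state as a pairing, there were 14, and with median centring 3.

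Markers of fat moved with the subunits across comparisons. For all marker lists, the background of genes called was 0.433% with rosiglitazone, 0.0180% in P465L and 6.49% in littermates against chow. At an unadjusted p under 0.05 it was 14.2%, 7.43% and 22.5% in the same order. Of 12 brown adipocyte markers 11 were found and 10 passed the filter, and with rosiglitazone 9 of the 10 were higher with a median of 0.68, 0 called by limma and 7 at an unadjusted p under 0.05; in littermates against chow 10 of 10 were higher with a median of 0.69 and 3 called (Ucp1, Elovl3 and Otop1); in P465L 7 of 10 were lower with a median of -0.87 and 1 called, Elovl3 (-2.35 ± 0.34, adjusted p = 0.00870). The summed signal of the 11 was 40257 to 70437 on chow, 74612 to 153773 and 76237 to 153228 after 3 mg for 2 and 14 days, 88584 to 111102 and 91137 to 135297 after 10 mg, 82764 to 154404 in littermates and 44629 to 111297 in P465L. Ucp1, the uncoupling protein that defines the brown adipocyte, was 14.47, 13.97 and 12.76 on chow, far above the filter of 8.73, and 15.48, 15.98 and 14.79 in littermates. Ucp1 and Cidea were well above the filter on all 20 arrays. Their part in the result was not tested.

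General adipocyte markers, 9 of 12 found and 8 past the filter, had medians of 0.49 with rosiglitazone, -0.58 in P465L and 0.58 in littermates against chow. With rosiglitazone 7 of 8 were higher and 1 was called, in P465L 7 of 8 were lower and 0 were called by limma (3 at an unadjusted p under 0.05), and in littermates 7 of 8 were higher and 2 rose, Agpat2 (1.27 ± 0.33, adjusted p = 0.0256) and Fabp4 (0.76 ± 0.21, adjusted p = 0.0328). Fabp4, the fatty acid carrier of adipocytes and a known PPARγ target, rose by 0.84 ± 0.17 with rosiglitazone (adjusted p = 0.0257). The summed signal of the 9 was 107373 to 168031 on chow, 173566 to 328176 and 174676 to 276086 after 3 mg, 215794 to 230376 and 206334 to 237231 after 10 mg, 191045 to 271823 in littermates and 114588 to 217349 in P465L. Chow array C and P465L array C were the 2 lowest arrays of the 20 by the subunits, the brown adipocyte markers and the adipocyte markers alike.

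Skeletal muscle markers, all 15 found and 13 past the filter, were spread over the chow arrays in another order than the subunits. Within littermates and within P465L, Ckm, Acta1, Myh4 and Mylpf followed the order of the subunits. Mylpf was 10.72, 12.19 and 10.38 in littermates and 11.76, 9.22 and 8.77 in P465L. The summed signal of the 15 was 5035 to 46239 on chow, 6037 to 23027 and 5752 to 21712 after 3 mg for 2 and 14 days, 6028 to 39326 and 4458 to 7939 after 10 mg, 24704 to 131175 in littermates and 7318 to 82890 in P465L. In littermates 13 of 13 were higher than on chow with a median of 1.93, and in P465L 13 of 13 were lower with a median of -1.26, none called by limma; 8 and 0 of them had an unadjusted p under 0.05. Chow array C, the lowest chow array in the subunits, was the highest chow array in these markers, at a mean log2 of 11.33. Cox6a2, the muscle isoform, was 10.76 on that array, while Cox7a1 and Cox8b were lowest there. On the other chow arrays Cox6a2 was 8.94 and 8.62, near the filter of 8.73. The part of these markers in the littermate and P465L comparisons was not tested. Smooth muscle markers had a median of -0.24 in P465L, with 8 of 10 lower, and of 0.26 in littermates against chow, with 8 of 10 higher, where the subunits had -0.25 and 0.31. None was called by limma, and 4 had an unadjusted p under 0.05 in each, while with rosiglitazone the median was -0.00, with 5 of 10 higher. Their summed signal was 491097 to 560095 on chow, 505540 to 678922 and 557741 to 647887 after 3 mg, 497993 to 620125 and 486539 to 542832 after 10 mg, 618735 to 622213 in littermates and 501089 to 554692 in P465L. Their part in the result was not tested. Of the other marker lists, 3 genes were called: the endothelial Pecam1 was lower with rosiglitazone (-0.57), and in littermates against chow the cardiac Tnnt2 was lower (-0.84) and the fibroblast Dcn higher (0.33).

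**Figure D5:**
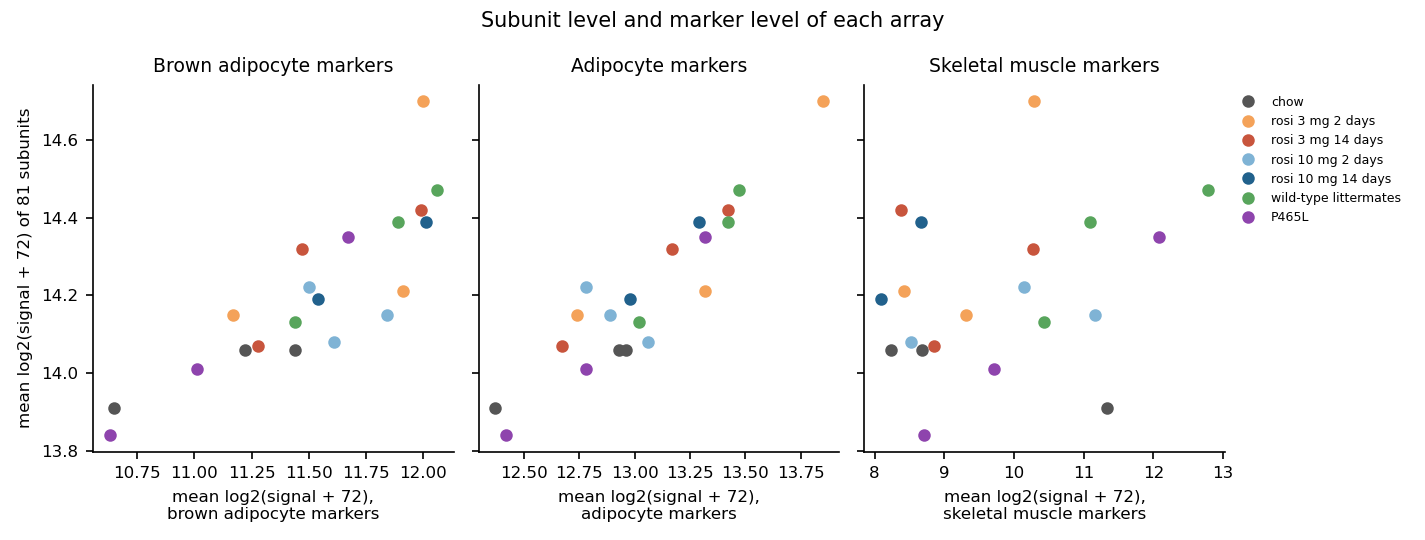
Mean log2(signal + 72) of the 81 subunits (vertical axis) against the mean of brown adipocyte, adipocyte and skeletal muscle markers (horizontal axes) on each of the 20 arrays, coloured by group. The lowest arrays on the left of the first and second panels are chow C and P465L C, at 13.91 and 13.84 for the subunits; in the third panel chow C is at 11.33, to the right.

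Other genes of the mitochondrion were taken from lists chosen by function. Of all genes, 0.433% were called with rosiglitazone, 0.0180% in P465L and 6.49% in littermates against chow. The shares at an unadjusted p under 0.05 were 14.2%, 7.43% and 22.5% in the same order. Of the citric acid cycle, which makes the NADH and succinate that complexes I and II use, 12 of 13 genes were higher with rosiglitazone (median 0.35, 0 called by limma, 7 at an unadjusted p under 0.05), with Sucla2 at 0.74 ± 0.20 (adjusted p = 0.107) and Dlst at 0.44 ± 0.17 (adjusted p = 0.252). In littermates against chow 12 of 13 were higher (median 0.59) and 4 rose: Dld (1.02), Suclg1 (1.10), Idh3a (1.01) and Idh3g (0.65). In P465L 12 of 13 were lower (median -0.37, 0 called, 2 at an unadjusted p under 0.05). Electron and nucleotide carriers of the inner membrane had 15 of 18 higher with rosiglitazone (median 0.16, 0 called, 5 at an unadjusted p under 0.05), with Etfb, of the flavoprotein that feeds electrons from fatty acid oxidation into the chain, at 0.87 ± 0.23 (adjusted p = 0.101) and its partner Etfa at 0.54 ± 0.17 (adjusted p = 0.153). In littermates all 18 were higher (median 0.32) and 4 rose: Etfa (0.88), Etfdh (0.95), Coq3 (0.54) and Etfb. In P465L 16 of 18 were lower (median -0.23, 0 called, 4 at an unadjusted p under 0.05).

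Assembly factors, which build the complexes without being part of them, had 33 of 44 higher with rosiglitazone (median 0.11, 0 called, 10 at an unadjusted p under 0.05). In littermates against chow 34 of 44 were higher (median 0.19), and Tmem70 (0.73), Ndufaf1 (0.50) and Sdhaf4 (0.50) rose. These 3 calls among 44 were about the share of all genes called in that comparison, 6.49%. In P465L 25 of 44 were lower (median -0.05, 0 called, 2 at an unadjusted p under 0.05). Of 23 regulators of mitochondrial biogenesis 16 were higher with rosiglitazone (median 0.07, 0 called). At an unadjusted p under 0.05 there were 4 of the 23, near the 14.2% of all genes. Ppara, the fatty acid oxidation receptor, had 1.03 ± 0.26 (adjusted p = 0.0893) and Ppargc1a, the coactivator of mitochondrial genes, 0.98 ± 0.28 (adjusted p = 0.127). Ppargc1a was 8.76, 8.90 and 8.75 on chow and 9.03 to 10.73 with rosiglitazone. The chow arrays were all below the rosiglitazone arrays for this gene, as for 0.803% of all genes tested. Its chow values lay close to the filter of 8.73. In littermates Ppara (1.32), Tfb1m (0.49) and Nrip1 (0.47) rose, and Ppargc1a had 0.37 ± 0.35. In P465L 15 of 23 regulators were higher (median 0.10, 0 called, 3 at an unadjusted p under 0.05).

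Of the 13 subunits encoded in mitochondrial DNA, 1 was measured by a probe set that named it, ND5 of complex I. It was 16.61, 16.24 and 15.95 on chow, 16.00 to 16.61 with rosiglitazone, 16.95, 17.24 and 16.77 in littermates and 16.79, 16.23 and 16.08 in P465L. With rosiglitazone the arrays lay within the chow range (0.03 ± 0.13, adjusted p = 0.960), and in littermates they lay above it (0.72 ± 0.17, adjusted p = 0.0141). In P465L the difference was -0.62 ± 0.17 (adjusted p = 0.494). Among the nuclear genes, 45 had a second probe set past the filter, and its sign matched that of the brightest in 42 with rosiglitazone, 36 in P465L and 41 in littermates against chow.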

How the data were processed

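Affymetrix Mouse Genome 430 2.0 arrays measured aorta RNA in 20 pools of 8 aortas. The deposited values are MAS5 signal intensity on a linear scale, per the submitters' processing notes; the version is not given in the sources used here, and each array's 2% trimmed mean is 1499 to 1500. Their number limits the precision.

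Each gene took its brightest probe set that named 1 gene, as log2(signal + 72), where 72 is the 20th percentile of all values. Genes whose mean reached the 50th percentile of probe set means (log2 8.73, a signal of 352.4) were tested. A model with 1 mean for each of 7 groups was fitted to all 20 arrays in limma 3.58.1 (R 4.3.3) with a variance trend, two-sided, with Benjamini-Hochberg adjustment over 11081 genes. Called means an adjusted p below 0.05. Fold changes are on the log2(signal + 72) scale, which understates those of dim genes. The procedure was tested on simulated data. Python 3.11.15, numpy 2.4.6, pandas 2.3.3 and matplotlib 3.10.9 made the summaries and figures.

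The members and all lists were chosen with earlier results of these data known. Named genes were those called, a set of core subunits and isoforms, the 5 highest and 5 lowest in the 3 main comparisons, and the 2 with the smallest p in each other comparison; for other lists, those called, else the 2 with the smallest p with rosiglitazone. Pools of 1 group are biological replicates per the labels. Array letters are not stated to pair arrays, and 57 pairs of same-letter arrays in different groups deviated together with a median r of 0.025 (-0.301 to 0.358). Alternatives covered the offset, filter, probe set rule, normalization, arrays in the fit, variance trend, array weights, the letter as a block, and leaving out each array. Promoters came from RefSeq (GRCm38.p6). Probe sets naming several genes were left out, since their signal cannot be divided.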

Additional observations from a re-analysis of the deposited data

Results flagged for a closer look

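For 7 genes every array of 1 rosiglitazone group lay above the chow mean and every array of another lay below it. The share of all genes tested with this pattern was not counted, so whether 7 of 81 is many cannot be said. The difference between groups was not tested by this, and the fits for dose, time and their interaction called none of the 7. Values are differences from the chow mean, averaged over the arrays on each side. Atp5e was at 0.38 after 3 mg for 2 days and at -0.12 in the 10 mg groups. Ndufa10 was at 0.30 after 10 mg for 14 days and at -0.17 after 10 mg for 2 days. Ndufv1 stood at 0.37 and -0.25 and Ndufa9 at 0.26 and -0.04, each above chow after 3 mg for 2 days and 10 mg for 14 days and below it after 10 mg for 2 days. Sdha (0.22 and -0.06) and Sdhc (0.14 and -0.06) were above chow in both 3 mg groups and below it after 10 mg for 2 days. Ndufa4l2 was at 0.17 in the 3 mg groups and at -0.09 after 10 mg for 14 days.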

How the results depend on the processing

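The median log2 fold change of the 81 genes stayed above 0 with rosiglitazone on average and in littermates against chow, and below 0 in P465L, under every setting tried. At 10 mg for 2 days it was -0.00 with median centring, and between times it ran from -0.03 to 0.10 when arrays were left out. In complex II the littermate median of 0.56 became 0.23 with the mean of probe sets. The single call with rosiglitazone, Cycs, became 0 with no filter on low values, with the mean of probe sets, with median centring and without the variance trend, and 0 to 1 when arrays were left out. Array weights gave 1 call at 10 mg for 2 days (Cycs) and 2 at 10 mg for 14 days (Cycs and Atp5o), where there were 0. In littermates against chow the 9 calls became 4 with no filter, 5 with the mean of probe sets, 3 with median centring, 5 without the variance trend, 15 with array weights, 14 with the array letter as a replicate block, and 0 to 17 when arrays were left out. The 5 with the mean of probe sets were Cycs, Ndufa9 and Ndufs1 of the 9, and Atp5c1 and Cox8c, which were not among the 9. Under the replicate block the rosiglitazone median was 0.22 with 1 call. The cause of these changes was not tested.

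With rosiglitazone, median centring turned Atp5e (-0.04), Atp5g3 (-0.03), Cox7a2l (-0.06), Cox8c (-0.05), Ndufa4l2 (-0.04) and Sdhc (-0.00) lower, quantile normalization Atp5g3 (-0.02), and array weights Cox7a2l (-0.00). The mean of probe sets gave -0.26 for Atp5g1 in littermates, and 0.07 for Atp5g2, -0.01 for Ndufa5 and -0.07 for Ndufb2 in P465L, and quantile normalization gave -0.01 for Ndufa4 in littermates. Leaving out arrays with rosiglitazone gave ranges across 0 for Atp5e (0.00 to 0.10), Atp5g1 (-0.07 to 0.03), Cox6a2 (-0.19 to 0.88), Cox7a2l (-0.04 to 0.08), Ndufa4l2 (-0.12 to 0.14), Ndufb1 (-0.18 to 0.08) and Ndufv1 (-0.01 to 0.18). In P465L it did so for Atp5g1 (-0.02 to 0.08), Atp5j (-0.08 to 0.14), Cox7a2l (-0.20 to 0.04), Ndufa5 (-0.04 to 0.16), Ndufb2 (-0.02 to 0.21) and Ndufs1 (-0.38 to 0.06). In littermates against chow it did so for Cox6b2 (-0.10 to 0.65), Cox7a2l (-0.14 to 0.10), Ndufa4 (-0.02 to 0.17), Ndufa4l2 (-0.10 to 0.18), Ndufb1 (-0.20 to 0.03) and Ndufb10 (-0.22 to 0.02). Of the other values of single genes across settings, 3493 kept their direction and side of the threshold, 74 lost a call and 32 gained one.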
